A study of Homo sapiens with 38 samples.

Results

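Sphingosine 1-phosphate (S1P) and ceramide are linked by a short chain of enzymes and 1 exporter, and 7 of these genes are described here in A549 cells depleted of ORMDL3 and treated with interleukin 1 beta (IL1B). The 7 genes are SMPD1, ACER2, SPHK1, SPNS2, SGPP1, SGPP2 and UGCG. They were found by symbol: a probe set was taken when the array annotation gave it 1 gene symbol and that symbol was one of these. Each gene had 1 such probe set, so that 7 of the 14488 probe sets in the table were members, and all 7 were tested with no filter on low values. A further probe set shared by SPNS2 and another gene was not used.

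Ceramide is released from sphingomyelin by acid sphingomyelinase (SMPD1) in the lysosome, and ceramidases such as ACER2 of the Golgi apparatus cut it to sphingosine. Sphingosine kinase 1 (SPHK1) adds a phosphate to give S1P, which SPNS2 carries out of the cell to its receptors and which the phosphatases SGPP1 and SGPP2 of the endoplasmic reticulum turn back to sphingosine. Glucosylceramide synthase (UGCG) draws ceramide off to glycosphingolipids. ORMDL3, also of the endoplasmic reticulum, restrains serine palmitoyltransferase, which starts the making of all sphingolipids.

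A549 is a human cell line from a lung adenocarcinoma and keeps epithelial features. One arm received a pool of siRNAs against ORMDL3 and the other is named only as control. The sources used here do not give the transfection of the control cells. Loss of ORMDL3, other effects of the siRNAs and transfection itself thus cannot be told apart in a difference between the arms. Silencing lasted 48 h and was followed by 24 h without serum and then by 1 ng/ml IL1B, an inflammatory cytokine that activates NF-kB. Arrays were made at 0, 2, 4, 8 and 10 h of IL1B. Knockdown cells had 3 arrays at 0 h and 4 at each later hour, and control cells had 3 arrays at 8 h and 4 at each other hour, 19 arrays in each arm. Untreated arrays exist at 0 h alone, so IL1B and further time in culture cannot be told apart in a change from 0 h. Collections at 6 and 24 h that the protocol names are not analysed here. Nothing in the labels says that replicates were separate cultures, so the p-values rest on array-to-array spread that may be technical.

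The values are log2 expression levels. Array medians were 8.02 to 8.19 and lower quartiles 6.52 to 6.70, and arrays of the same group correlated at 0.987 to 0.996. ORMDL3 lay at 5.00 to 5.57 in the 19 knockdown arrays and at 6.78 to 7.77 in the 19 control arrays, with no overlap. The share of the control level that remained in knockdown cells was 28.9% at 0 h, 24.3% at 2 h, 31.3% at 4 h, 23.0% at 8 h and 19.6% at 10 h. Each hour's exact permutation test, two-sided, gave p = 0.0286, the smallest that these array numbers can give. Against 0 h, ORMDL3 rose in control cells by 0.37 at 8 h and 0.45 at 10 h (limma adjusted p = 0.0118 and 0.00109). In knockdown cells it stood at 0.05 and -0.10 at these hours and did not pass. The change in knockdown cells minus that in control cells was -0.33 at 8 h and -0.56 at 10 h. It was not called at these hours (limma adjusted p = 0.481 and 0.284). The 8 h rise in control cells lost its call without control replicate 1 at 8 h or 4 at 0 h (limma adjusted p = 0.0628 and 0.0640). It was also lost without all arrays of replicate number 2 (adjusted p = 0.0596). All knockdown levels lay below the arrays' lower quartiles. The epithelial markers EPCAM, CDH1, KRT8, KRT18 and KRT19 had medians of 6.88, 9.92, 13.0, 12.5 and 9.18 over the arrays. CD14, ITGAM, COL1A1 and CDH5, which mark leukocytes, fibroblasts or endothelium, had medians of 7.62, 6.69, 6.79 and 6.34. All 5 epithelial markers fell under IL1B as the mean of 4 hours, with a median change of -0.57 in knockdown cells and -0.34 in control cells. Taken gene by gene, the response in knockdown cells minus that in control cells had a median of 0.08 over these 5. For that difference limma called 0 of them. Of the other marker lists, 1 of 2 measured fibroblast and endothelial markers, 1 of 2 leukocyte markers and 1 of 2 lung epithelial markers rose under IL1B in both arms, with list medians of 0.69, 0.04 and 1.20 in knockdown cells and 0.57, 0.24 and 1.12 in control cells. The part of these shifts in the results below was not tested.

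**Figure D1:**
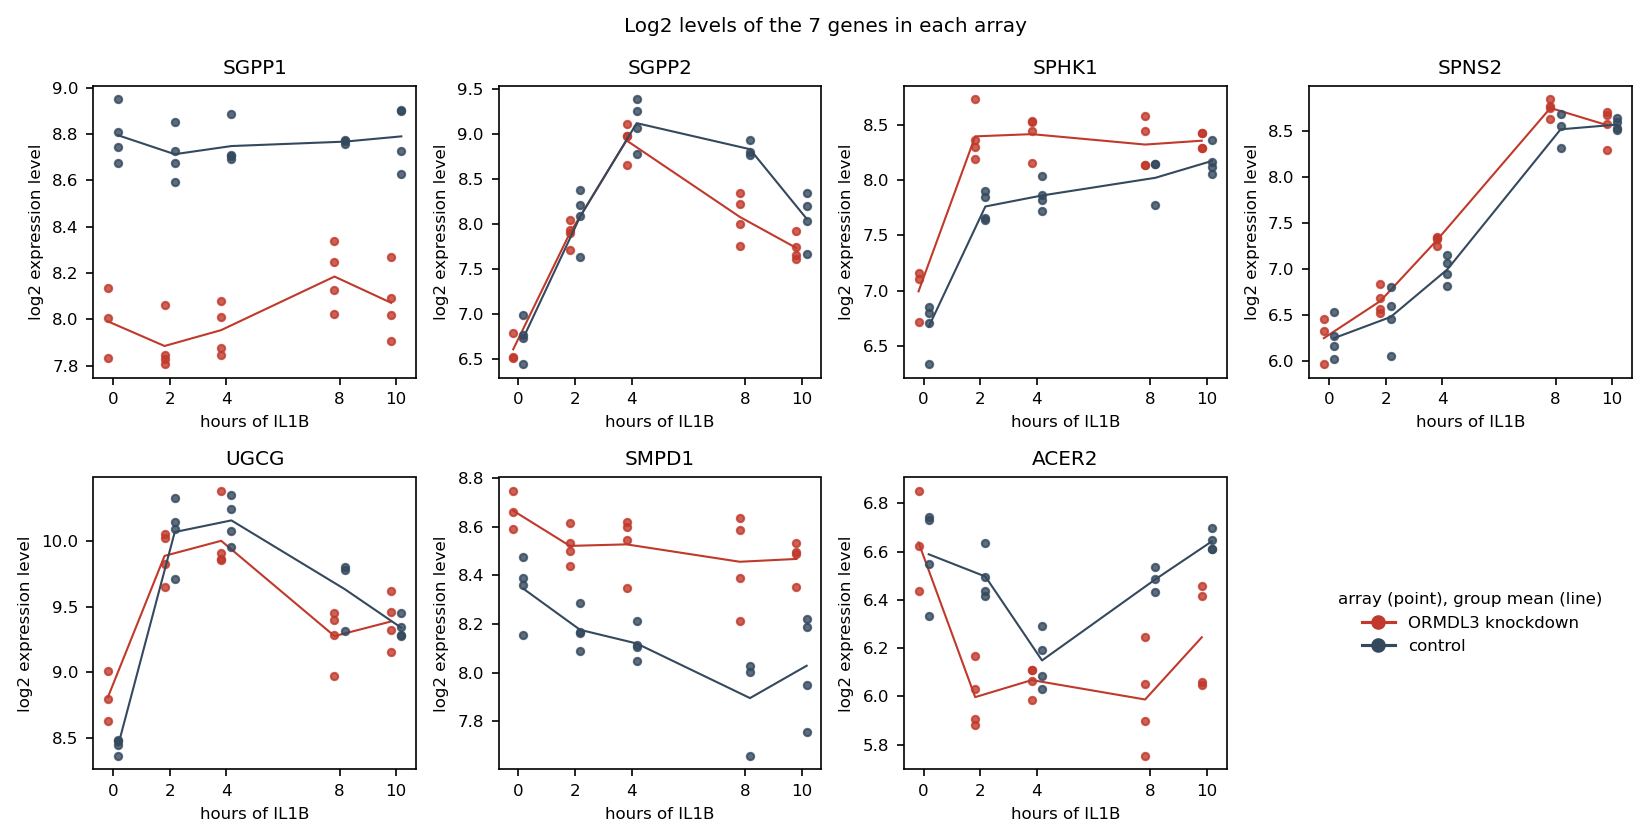
Log2 expression level (vertical axis) of each of the 7 genes against hours of IL1B (horizontal axis), with 1 point per array and a line through the group means of knockdown cells (red) and control cells (dark blue). The points of the 2 arms do not overlap at any hour for SGPP1 and SMPD1. The group means of SGPP2, SPHK1, SPNS2 and UGCG lie higher after IL1B in both arms. The SPNS2 control points at 2 h and the UGCG knockdown points at 8 h still overlap those at 0 h.

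In the arm given siRNAs against ORMDL3, SGPP1, SGPP2 and ACER2 were lower and SMPD1 and SPHK1 higher, when the 5 hours were averaged. SGPP1 fell by 0.75 ± 0.04 (limma's standard error), to 59.7% of the control level, and SMPD1 rose by 0.41 ± 0.04. SPHK1 rose by 0.40 ± 0.06, SGPP2 fell by 0.32 ± 0.07 and ACER2 fell by 0.29 ± 0.05. SPNS2, at 0.14 ± 0.06, and UGCG, at -0.06 ± 0.06, did not pass the test. A probe set is called when limma's p is under 0.05 after Benjamini-Hochberg adjustment, made over all 14488 probe sets. By this rule 5 of the 7 genes were called, 2 higher and 3 lower, where 23% of all probe sets were called, 10.9% higher and 12.1% lower. The 7 genes were chosen with earlier results of these data known, so counts of them beside all probe sets, here and below, are descriptions only. The median difference was -0.06 over the 7 genes and -0.01 over all probe sets. RNA came from whole cultures, in which fewer cells that express a gene and less of its RNA per cell cannot be told apart.

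At single hours fewer of the 7 genes passed. At 0 h, before IL1B, 1 gene was called, lower, where 3.31% of all probe sets were called. At 2 h, 2 were higher and 2 lower, where 6.18% of all probe sets were called. At 4 h, 2 were higher and 1 lower, and 1.84% of all probe sets were called. At 8 h, 1 was higher and 3 were lower, and 2.88% of all probe sets were called. At 10 h, 1 was higher and 2 were lower, and 2.28% of all probe sets were called. SGPP1 was the only one of the 7 that was called at all 5 hours. When each hour was fitted by limma on its own groups alone, calls were lost for SMPD1 at 4, 8 and 10 h (adjusted p = 0.0798, 0.0951 and 0.124), for ACER2 at 8 and 10 h (0.0951 and 0.142), for SPHK1 at 4 h (0.0622) and for SGPP2 at 8 h (0.0546).

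SMPD1, the sphingomyelinase, was higher throughout in knockdown cells, where no array overlapped with the control arrays of its hour. At 0 h its level was 8.75, 8.59 and 8.66 in knockdown arrays, against 8.39, 8.48, 8.16 and 8.36 in control arrays. At 2 h it was 8.54, 8.44, 8.61 and 8.50 in knockdown arrays, against 8.17, 8.29, 8.16 and 8.09 in control arrays. At 4 h it was 8.60, 8.62, 8.35 and 8.54 in knockdown arrays, against 8.11, 8.11, 8.05 and 8.21 in control arrays. At each of these hours the lowest knockdown array stood above the highest control array. At 8 h the knockdown arrays had 8.59, 8.39, 8.21 and 8.64, against 7.66, 8.00 and 8.03 in control arrays. At 10 h the knockdown arrays had 8.49, 8.50, 8.35 and 8.53, against 8.19, 7.95, 7.76 and 8.22 in control arrays. The knockdown difference was 0.32 ± 0.10 at 0 h, which missed the threshold in limma (adjusted p = 0.0873), and 0.35, 0.41, 0.56 and 0.44 at 2, 4, 8 and 10 h, which passed it (adjusted p = 0.0276, 0.0154, 0.00197 and 0.00934). With limma's weights for array quality the 0 h difference passed too (0.28, adjusted p = 0.0477). The 2 h call was lost without any one of control replicates 1 and 3 and knockdown replicates 1 and 3 (0.31 to 0.34, limma adjusted p 0.0665 to 0.0752), the 4 h call without any one of knockdown replicates 1, 2 and 4 and control replicate 3 (0.38 to 0.40, adjusted p 0.0520 to 0.0688) and the 10 h call without control replicate 3 (0.35, adjusted p 0.0747). Without all arrays of 1 replicate number, the 2 h call was lost for number 1, 2, 3 or 4 and the 4 h call for number 1, 2 or 4. In the same way the 8 h call was lost for number 1 and the 10 h call for number 1 or 2 (limma adjusted p 0.0529 to 0.202 in all these). The mean over hours kept its call without any single array or number.

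ACER2, the Golgi ceramidase, passed the test at 3 of the 4 later hours, each time lower in knockdown cells, and not at 0 h. At 0 h it had 6.85, 6.62 and 6.44 in knockdown arrays, against 6.74, 6.73, 6.55 and 6.33 in control arrays, a difference of 0.05 with a 95% interval of -0.18 to 0.28. At 2 h it had 6.17, 5.88, 5.91 and 6.03 in knockdown arrays, against 6.42, 6.44, 6.64 and 6.50 in control arrays. At 4 h it had 5.99, 6.07, 6.11 and 6.11 in knockdown arrays, against 6.19, 6.03, 6.29 and 6.09 in control arrays. The arms were apart at 2 h and overlapped at 4 h, the hour at which control cells were lowest. At 8 h knockdown arrays had 5.90, 6.25, 6.05 and 5.75, against 6.49, 6.53 and 6.43 in control arrays. At 10 h knockdown arrays had 6.46, 6.41, 6.05 and 6.06, against 6.61, 6.61, 6.65 and 6.70 in control arrays. The difference was -0.50 at 2 h, -0.08 at 4 h, -0.50 at 8 h and -0.40 at 10 h, with limma's adjusted p at 0.00322, 0.841, 0.0105 and 0.0327. The 8 h call was lost without knockdown replicate 4 (-0.42, adjusted p = 0.0634) or control replicate 2 (-0.47, adjusted p = 0.0516), and the 10 h call without any one of knockdown replicates 3 and 4 and control replicates 1, 3 and 4 (-0.41 to -0.33, adjusted p 0.0741 to 0.161). Without all arrays of 1 replicate number, the 2 h call was lost for number 3 (-0.42, limma adjusted p = 0.0874). The 8 h call was lost for number 1 or 3 (adjusted p = 0.111 and 0.0895) and the 10 h call for number 1, 2, 3 or 4 (adjusted p 0.0637 to 0.293). ACER2 was dim, below the lower quartile of the array on 33 of the 38 arrays.

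SPHK1, the kinase that makes S1P, passed the test between the arms at 2 and 4 h alone, each time higher in knockdown cells. At 0 h it had 7.10, 6.72 and 7.16 in knockdown arrays, against 6.85, 6.34, 6.71 and 6.80 in control arrays. At 2 h it had 8.19, 8.30, 8.36 and 8.73 in knockdown arrays, against 7.90, 7.65, 7.64 and 7.85 in control arrays. At 4 h it had 8.53, 8.44, 8.16 and 8.52 in knockdown arrays, against 7.87, 7.82, 7.72 and 8.03 in control arrays. Only at 2 and 4 h did all knockdown arrays lie above all control arrays. The difference was 0.63 ± 0.13 at 2 h and 0.55 ± 0.13 at 4 h (limma adjusted p = 0.00218 and 0.0116). At 0, 8 and 10 h it was 0.32, 0.30 and 0.18, with adjusted p at 0.240, 0.271 and 0.581 in limma and arrays that overlapped between the arms. At 8 h the level was 8.13, 8.14, 8.44 and 8.57 in knockdown arrays, against 8.14, 7.77 and 8.14 in control arrays, and at 10 h it averaged 8.35 ± 0.08 in knockdown arrays and 8.17 ± 0.13 in control arrays (SD, n = 4 each). The 4 h call was lost without knockdown replicate 4 (0.52, adjusted p = 0.0564) or control replicate 3 (0.51, adjusted p = 0.0652). It was also lost without all arrays of replicate number 1, 2 or 3 (limma adjusted p = 0.138, 0.0593 and 0.0822).

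SPNS2, the S1P exporter, passed the threshold between the arms at no hour, although its arrays did not overlap at 4 h. At that hour it had 7.35, 7.33, 7.33 and 7.25 in knockdown arrays, against 6.81, 6.95, 7.06 and 7.15 in control arrays, a difference of 0.32 ± 0.12 (limma adjusted p = 0.224). At 0 h it averaged 6.25 ± 0.26 in knockdown arrays (SD, n = 3) and 6.25 ± 0.21 in control arrays (SD, n = 4). At 10 h it averaged 8.56 ± 0.19 in knockdown arrays and 8.57 ± 0.06 in control arrays (SD, n = 4 each), with a 95% interval of the difference of -0.26 to 0.24. The mean over hours, 0.14 with an adjusted p of 0.0653 in limma, passed when 1 of 6 arrays was left out: knockdown replicate 2 at 0 or 10 h, or control replicate 3 at 0 h, replicate 4 at 2 or 4 h or replicate 2 at 8 h (0.15 to 0.17, adjusted p 0.0241 to 0.0477).

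The S1P phosphatases had different courses. SGPP1 was lower in all 19 knockdown arrays, at 7.81 to 8.34 with a median of 8.02, than in any of the 19 control arrays, at 8.59 to 8.95 with a median of 8.74. At 0 h it had 7.83, 8.14 and 8.01 in knockdown arrays, against 8.68, 8.74, 8.81 and 8.95 in control arrays. At 8 h it had 8.25, 8.34, 8.13 and 8.02 in knockdown arrays, against 8.76, 8.78 and 8.77 in control arrays. The difference was thus present before IL1B. It was -0.80, -0.83, -0.79, -0.58 and -0.72 at 0, 2, 4, 8 and 10 h, each ± 0.09, with limma's adjusted p between 9.57e-08 and 0.000342. No call for SGPP1 between the arms was lost under any alternative.

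Among single hours, SGPP2 passed the test between the arms at 8 h alone. At that hour it had 8.22, 8.34, 7.99 and 7.75 in knockdown arrays, against 8.76, 8.93 and 8.79 in control arrays, with no overlap. The difference was -0.75 ± 0.16 (limma adjusted p = 0.00852), and it missed the threshold without knockdown replicate 4 (-0.64, adjusted p = 0.0516). Without all arrays of replicate number 1 or 3 the 8 h call of SGPP2 was lost too (-0.83 and -0.74, adjusted p = 0.0859 and 0.139). At 10 h it had 7.92, 7.74, 7.65 and 7.61 in knockdown arrays, against 8.03, 8.34, 8.19 and 7.66 in control arrays, and the difference of -0.33 did not pass (limma adjusted p = 0.329). At 0, 2 and 4 h it was -0.13, -0.18 and -0.19, with 95% intervals that held 0.

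In the main fit UGCG, which glycosylates ceramide, passed the threshold between the arms at no hour, although its arrays did not overlap at 0 h. Before IL1B it had 9.01, 8.79 and 8.63 in knockdown arrays, against 8.47, 8.44, 8.48 and 8.36 in control arrays, a difference of 0.37 ± 0.15 (limma adjusted p = 0.195). UGCG passed at 0 h with limma's weights for array quality (0.36, adjusted p = 0.036). At 8 h it had 9.45, 9.40, 8.97 and 9.28 in knockdown arrays, against 9.78, 9.31 and 9.81 in control arrays, a difference of -0.36 ± 0.15 (adjusted p = 0.205 in limma). The means of the arms were in opposite order at these hours, and the arrays overlapped at 8 h. At 2, 4 and 10 h the differences were -0.18, -0.16 and 0.05.

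Under IL1B, 4 of the 7 genes rose in both arms: SPHK1, SPNS2, SGPP2 and UGCG. As the mean of 4 hours against 0 h, SGPP2 rose by 1.55 ± 0.13 in knockdown cells and 1.79 ± 0.12 in control cells, and SPNS2 by 1.57 ± 0.11 in knockdown cells and 1.39 ± 0.10 in control cells. SPHK1 rose by 1.38 ± 0.11 in knockdown cells and 1.28 ± 0.10 in control cells, and UGCG by 0.83 ± 0.12 in knockdown cells and 1.36 ± 0.11 in control cells. ACER2 fell by 0.56 ± 0.09 in knockdown cells and stood at -0.15 ± 0.08 in control cells, which missed the threshold. SMPD1 stood at -0.17 ± 0.09 in knockdown cells, which missed the threshold, and fell by 0.29 ± 0.08 in control cells. SGPP1 was called at no hour in either arm, at 0.03 ± 0.08 in knockdown cells and -0.04 ± 0.07 in control cells, but its 8 h change in knockdown cells passed after quantile normalization or with array medians subtracted (0.25 with both, limma adjusted p = 0.0413 and 0.0397).

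In knockdown cells 4 of the 7 genes were thus called higher and 1 lower as the mean of 4 hours, where 31.1% of all probe sets were called, 12.1% higher and 19% lower. In control cells the count was likewise 4 higher and 1 lower, where 39.3% of all probe sets were called, 18.1% higher and 21.2% lower. Since the 7 genes were chosen with earlier results of these data known, an excess over these shares is no result about the pathway. The median change was 0.83 in knockdown cells and 1.28 in control cells over the 7 genes, and -0.04 in knockdown cells and -0.02 in control cells over all probe sets. At 2, 4, 8 and 10 h in knockdown cells 4 genes were higher and 1 lower each time, where 23.4%, 30.1%, 28.9% and 25.5% of all probe sets were called. In control cells 3 were higher and none lower at 2 h, where 20% of all probe sets were called. At 4, 8 and 10 h in control cells 4 were higher and 1 lower, where 37.9%, 34.3% and 34.7% were called. All changes of an arm from 0 h share that arm's 0 h arrays. Fitted by limma on the groups compared alone, calls were lost for SPNS2 at 2 h and ACER2 at 10 h in knockdown cells (adjusted p = 0.0559 and 0.0831), and for SMPD1 at 10 h and the SPNS2 step from 2 to 4 h in control cells (0.0512 and 0.0533).

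Among the 4 induced genes, SPHK1 was above its 0 h level by 2 h in both arms. Its later arrays, at 8.13 to 8.73 in knockdown cells and 7.64 to 8.36 in control cells, all lay above its 0 h arrays, at 6.72 to 7.16 in knockdown cells and 6.34 to 6.85 in control cells. The change from 0 h was 1.40, 1.42, 1.33 and 1.36 at 2, 4, 8 and 10 h in knockdown cells, and 1.09, 1.18, 1.34 and 1.50 in control cells. In control cells SPHK1 had 8.36, 8.05, 8.11 and 8.16 at 10 h, against 7.90, 7.65, 7.64 and 7.85 at 2 h, with no overlap. No step between neighbouring later hours passed the test in either arm, and 10 h was not tested against 2 h.

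SPNS2 was higher at 8 h than at 2 h in both arms. In knockdown cells it had 6.57, 6.68, 6.51 and 6.84 at 2 h, 7.35, 7.33, 7.33 and 7.25 at 4 h, then 8.77, 8.84, 8.63 and 8.74 at 8 h. In control cells it had 6.60, 6.46, 6.05 and 6.80 at 2 h, 6.81, 6.95, 7.06 and 7.15 at 4 h, then 8.31, 8.68 and 8.55 at 8 h. The arrays of these 3 hours did not overlap in either arm, each hour lying above the one before. From 2 to 4 h it rose by 0.66 in knockdown cells and 0.52 in control cells, and from 4 to 8 h by 1.43 in knockdown cells and 1.52 in control cells (limma adjusted p at most 0.00329). Between 8 and 10 h the step was -0.19 in knockdown cells and 0.05 in control cells and did not pass. Against 0 h the change at 2 h was 0.40 in knockdown cells (limma adjusted p = 0.0245) and 0.23 in control cells (adjusted p = 0.212). The call in knockdown cells was lost without knockdown replicate 2 at 0 h (0.26, adjusted p = 0.226), replicate 2 at 2 h (0.39, adjusted p = 0.0515) or replicate 4 at 2 h (0.34, adjusted p = 0.0795), and the change in control cells passed without control replicate 3 at 2 h (0.37, adjusted p = 0.0242). SPNS2 was below the lower quartile of the array on 12 of the 38 arrays.

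SGPP2 peaked at 4 h and then declined. In knockdown cells it had 6.79, 6.52 and 6.52 at 0 h, 7.90, 8.05, 7.93 and 7.71 at 2 h, then 8.97, 9.10, 8.98 and 8.65 at 4 h. In control cells it had 6.77, 6.74, 6.99 and 6.44 at 0 h, 8.21, 8.38, 8.09 and 7.63 at 2 h, then 9.25, 9.38, 9.06 and 8.78 at 4 h. The groups of neighbouring hours did not overlap in this climb. The peak change from 0 h was 2.32 ± 0.16 in knockdown cells and 2.38 ± 0.15 in control cells. From 4 to 8 h SGPP2 fell by 0.85 in knockdown cells (limma adjusted p = 5.55e-05) and stood at -0.29 in control cells (adjusted p = 0.239). With the replicate number as a fixed or random block this step passed in control cells too (-0.38 and -0.34, adjusted p = 0.00467 and 0.0460). From 8 to 10 h SGPP2 stood at -0.35 in knockdown cells (limma adjusted p = 0.263) and fell by 0.77 in control cells (adjusted p = 0.00771). The call for this fall in control cells was lost without all arrays of replicate number 1 or 3 (-0.80 and -0.84, adjusted p = 0.135 and 0.106). At 10 h SGPP2 was still 1.12 ± 0.16 above 0 h in knockdown cells and 1.32 ± 0.15 above it in control cells.

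UGCG was near its peak at 2 h. At 2 h it had 9.82, 10.06, 10.02 and 9.65 in knockdown arrays, against 9.01, 8.79 and 8.63 at 0 h. In control cells it had 10.33, 10.15, 10.10 and 9.71 at 2 h, against 8.47, 8.44, 8.48 and 8.36 at 0 h. The 2 h and 0 h arrays did not overlap in either arm. The change from 0 h was 1.08, 1.20, 0.47 and 0.58 at 2, 4, 8 and 10 h in knockdown cells and 1.63, 1.72, 1.20 and 0.90 in control cells. The 8 h call in knockdown cells was lost without knockdown replicate 4 at 0 h (0.38, limma adjusted p = 0.0912) or replicate 1 at 8 h (0.41, adjusted p = 0.0522). From 4 to 8 h UGCG fell by 0.73 in knockdown cells and by 0.53 in control cells (limma adjusted p = 9.84e-05 and 0.00812), and the fall in control cells was lost without control replicate 2 at 8 h (-0.37, adjusted p = 0.117).

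ACER2 and SMPD1 moved down or not at all. ACER2 was lower than at 0 h at every later hour in knockdown cells, at -0.64, -0.57, -0.65 and -0.39 for 2, 4, 8 and 10 h (limma adjusted p at most 0.0084), and the 10 h call was lost without knockdown replicate 1 at 0 h (-0.29, adjusted p = 0.103). In control cells it passed at 4 h alone, at -0.44 ± 0.10, and stood at -0.09, -0.10 and 0.05 at 2, 8 and 10 h. The control arrays had 6.42, 6.44, 6.64 and 6.50 at 2 h, 6.19, 6.03, 6.29 and 6.09 at 4 h, then 6.49, 6.53 and 6.43 at 8 h. The 4 h arrays lay below those of the hours on either side. These steps of -0.35 and 0.34 passed narrowly (limma adjusted p = 0.0199 and 0.0280). The fall was lost without any one of control replicates 2 and 4 at 4 h and replicate 3 at 2 h (-0.33 to -0.30, adjusted p 0.0554 to 0.0810), and the later rise without any one of control replicates 2 and 4 at 4 h and replicates 1, 2 and 3 at 8 h (0.30 to 0.36, adjusted p 0.0512 to 0.0992). Over the 4 hours the ACER2 change in control cells passed without control replicate 4 at 0 h (-0.23, adjusted p = 0.0396). SMPD1 was called in control cells at 8 h, at -0.45 ± 0.10, and at 10 h, at -0.32 ± 0.10, and the 10 h call was lost without control replicate 3 at that hour (-0.23, limma adjusted p = 0.0738). At 4 h it stood at -0.23 (adjusted p = 0.0631) and passed without any one of control replicate 3 at 0 h, replicate 1 at 8 h or replicate 3 at 10 h, or knockdown replicate 3 at 8 h (-0.29 to -0.23, adjusted p 0.0256 to 0.0492). In knockdown cells it was called at no hour.

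Between neighbouring hours the calls were these. From 2 to 4 h, 2 genes were higher and none lower in knockdown cells, where 14.6% of all probe sets were called, and 2 were higher and 1 lower in control cells, where 13.4% were called. From 4 to 8 h, 1 gene was higher and 2 were lower in knockdown cells, where 22.5% of all probe sets were called, and 2 were higher and 1 lower in control cells, where 21.1% were called. From 8 to 10 h, 0 of the 7 genes were called in knockdown cells by limma, and 2 had an unadjusted p under 0.05, where 2.33% of all probe sets were called. Over the same step 1 gene, SGPP2, was lower in control cells, where 2.88% were called. SGPP1 stood at 0.23 from 4 to 8 h in knockdown cells (limma adjusted p = 0.0507), and passed when any one of 11 arrays was left out (0.23 to 0.29, adjusted p 0.0221 to 0.0489). These were knockdown replicates 1 and 2 at 0 h, 3 at 2 h, 3 at 4 h, 4 at 8 h and 2 and 3 at 10 h, and control replicates 4 at 0 h, 4 at 2 h, 1 at 4 h and 2 at 10 h.

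**Figure D2:**
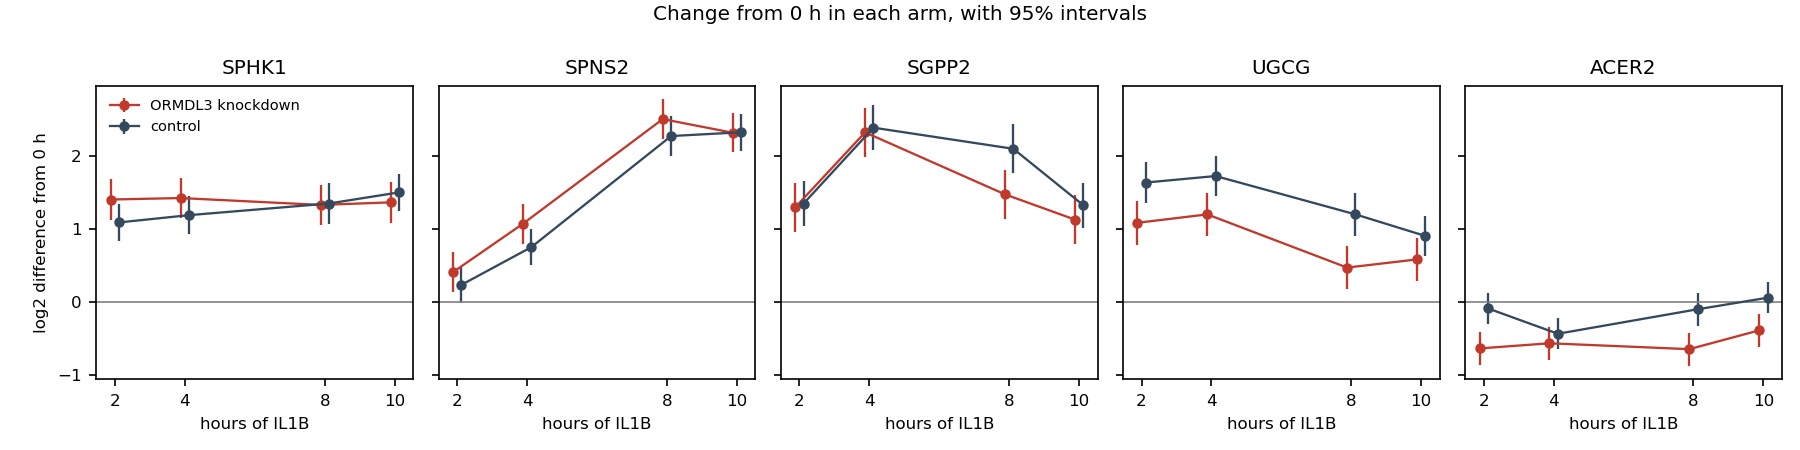
Log2 difference from 0 h (vertical axis) at 2, 4, 8 and 10 h of IL1B (horizontal axis) for 5 of the genes, in knockdown cells (red) and control cells (dark blue), with 95% intervals from limma. SPHK1 lies between 1.33 and 1.42 at all hours in knockdown cells and between 1.09 at 2 h and 1.50 at 10 h in control cells, SPNS2 climbs until 8 h, SGPP2 peaks at 4 h, UGCG is lower in knockdown than in control cells at each hour on this scale, and ACER2 is below 0 at all 4 hours in knockdown cells.

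Sequence upstream of the start of transcription was read for the genes that IL1B moved, since NF-kB and AP-1 are factors that the cytokine activates. Windows of 250 bases before each start were taken from RefSeq on GRCh38.p14, and 5 of the 7 genes had 8 windows between them. SPNS2 and SGPP1 had none. They were searched on both strands for GGNNNTTCC, a form of the NF-kB site, and for TGANTCA, the AP-1 site, which share no letters in the matches below. GGNNNTTCC occurred in 17.1% and TGANTCA in 6.57% of all 35116 windows of the same length. Only the windows with a match are shown, in lower case with the matches in capitals.
SGPP2, window at chr2:222423738-222423987, plus strand: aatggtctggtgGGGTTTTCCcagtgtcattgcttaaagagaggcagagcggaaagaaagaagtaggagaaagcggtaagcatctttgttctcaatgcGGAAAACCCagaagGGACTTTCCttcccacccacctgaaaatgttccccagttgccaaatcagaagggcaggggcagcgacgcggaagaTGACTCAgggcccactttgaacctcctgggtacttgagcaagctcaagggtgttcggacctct
SPHK1, window at chr17:76385028-76385277, plus strand: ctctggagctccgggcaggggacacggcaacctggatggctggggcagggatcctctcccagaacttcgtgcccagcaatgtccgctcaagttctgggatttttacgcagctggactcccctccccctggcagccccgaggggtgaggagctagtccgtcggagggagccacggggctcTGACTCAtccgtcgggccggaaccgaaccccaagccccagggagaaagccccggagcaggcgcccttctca
The SGPP2 window held 3 matches to GGNNNTTCC, which begin 238, 152 and 138 bases before the start, the one at 152 on the minus strand, and 1 match to TGANTCA at 63 bases. The SPHK1 window held 1 match to TGANTCA, 71 bases before the start. The other SGPP2 window, the other 2 SPHK1 windows and those of UGCG, SMPD1 and ACER2 held neither string of letters. With the kappaB decamer consensus in place of GGNNNTTCC, which 9.96% of all windows held, SGPP2 had 2 matches that overlap those shown and SMPD1 had 2. A match is a run of letters and not a measured site, and no match says only that these letters are not in the window.

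Whether the IL1B response itself differed between the arms was tested as the response in knockdown cells minus that in control cells. None of the 7 genes passed at any hour, as the mean of 4 hours or in the joint F test over the hours. By limma 0 of the 7 were called at 2, 4, 8 and 10 h, with 2, 1, 3 and 1 at an unadjusted p under 0.05, where 0.0276%, 0.069%, 0.228% and 0.0828% of all probe sets were called. For the mean of 4 hours and the joint F test the counts were again 0, with 2 at an unadjusted p under 0.05 in each, where 0.235% and 0.166% of all probe sets were called. The 34 probe sets called for the mean numbered 8 without knockdown replicate 1 at 0 h, 14 without knockdown replicate 2 at 0 h and 19 without control replicate 2 at 0 h.

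UGCG and ACER2 were the genes with an unadjusted p under 0.05 for the mean. The UGCG response in knockdown cells minus that in control cells was -0.53 ± 0.16, with a 95% interval of -0.86 to -0.20 (limma, unadjusted p = 0.00244, adjusted p = 0.227). Its difference in response was -0.55, -0.53, -0.73 and -0.32 at 2, 4, 8 and 10 h. For ACER2 the mean was -0.42 ± 0.12 with an interval of -0.67 to -0.17 (limma, unadjusted p = 0.00188, adjusted p = 0.218), and the hours gave -0.55, -0.13, -0.55 and -0.45. Both differences include the 0 h arrays, where UGCG stood 0.37 higher in knockdown cells and ACER2 0.05 higher. With limma's weights for array quality both passed, UGCG at -0.54 (adjusted p = 0.0179) and ACER2 at -0.40 (adjusted p = 0.0303), as did their joint F tests (adjusted p = 0.0459 and 0.0432). The same weights raised the probe sets called from 34 to 536 for the mean and from 24 to 457 for the joint F test. With them UGCG also passed between the arms at 0 h. SGPP2 had a difference of -0.62 at 8 h (limma, unadjusted p = 0.0110, adjusted p = 0.323). For SPHK1, SPNS2, SMPD1 and SGPP1 the intervals of the mean were -0.21 to 0.40, -0.12 to 0.48, -0.12 to 0.35 and -0.14 to 0.28, so a difference in response of these sizes in either direction was not resolved.

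Each gene's course over the 10 group means was set beside those of 5149 other probe sets with 1 symbol whose group means spanned at least 0.5. The measure was Pearson's r over the 10 groups, given as a description. The groups share arrays' arm and hour, so a gene with an arm difference is like any other gene with one. Closest to SGPP1 were CARNMT1 (r = 0.98), ORMDL3 (0.98) and PLA2G15 (0.97). Closest to SMPD1 were AXL (0.98), SYT13 (0.97) and SFXN3 (0.96). SGPP2 was most like GJB2 (0.99), LYN (0.99) and DNAJA1 (0.98), and UGCG most like SMOX (0.99), BCL2A1 (0.98) and ZC3H12C (0.98). SPNS2 was most like CLMP (0.99), DNER (0.99) and BMP7 (0.98), and SPHK1 most like UCN2, ARRDC3 and JAK1 (0.97 each). ACER2 had the least close neighbours, CDC7 (0.94), KDM4D (0.90) and HHIP (0.89). Among the 7 genes themselves, SGPP2 and UGCG were the most alike (r = 0.84) and SGPP1 and SMPD1 the most opposed (r = -0.87).

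The wider pathway was read from lists that cover S1P kinases, lyase and phosphatases, S1P export and receptors, ceramidases, sphingomyelin, glycosphingolipids, ceramide transfer and phosphorylation, and de novo synthesis. Of 73 genes listed 53 were measured, 46 of them besides the 7. For knockdown minus control as the mean of 5 hours, 6 of the 46 were higher and 8 lower, with a median of -0.03. The 8 include ORMDL3, the siRNAs' own target, and 10.9% of all probe sets were higher and 12.1% lower. For IL1B as the mean of 4 hours, 12 were higher and 8 lower in knockdown cells, with a median of 0.01, and 15 were higher and 9 lower in control cells, with a median of 0.04. For the difference in response 0 of the 46 were called by limma. For IL1B, 12.1% of all probe sets were higher and 19% lower in knockdown cells, and 18.1% higher and 21.2% lower in control cells. For the difference in response 0.235% of all probe sets were called.

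Apart from ORMDL3, the siRNAs' own target, the called knockdown changes in these other genes were smaller than that of SGPP1. ASAH1, the lysosomal ceramidase, fell by 0.19 ± 0.04, and ALDH3A2, which oxidises the aldehyde left by the S1P lyase, fell by 0.19 ± 0.03. SGMS2, a sphingomyelin synthase, rose by 0.29 ± 0.04, and the lyase itself, SGPL1, stood at 0.01 ± 0.03. CERT1, which carries ceramide to the Golgi apparatus, rose by 0.17 ± 0.04. Among glycosphingolipid genes, ST3GAL5, the GM3 synthase, rose by 0.29 ± 0.05 and B4GALT6, a lactosylceramide synthase, by 0.22 ± 0.05, while HEXA, a lysosomal hexosaminidase subunit, fell by 0.18 ± 0.03 and GALC, the galactosylceramidase, by 0.14 ± 0.04. In de novo synthesis 4 of 13 genes fell and none rose, where 12.1% of all probe sets were lower and 10.9% higher. The 4 were the silenced ORMDL3, its paralogs ORMDL1 by 0.17 ± 0.04 and ORMDL2 by 0.09 ± 0.03, and CERS6, a ceramide synthase, by 0.11 ± 0.03. ORMDL1, ORMDL2 and CERS6 lost their calls without all arrays of replicate number 2 (limma adjusted p = 0.0688, 0.0878 and 0.0974), ORMDL2 also without number 4 (0.0947), and GALC without number 4 (0.174). GAL3ST1, which makes sulfatide, rose by 0.12 ± 0.04 and GLTP, a glycolipid transfer protein, by 0.10 ± 0.03. GAL3ST1 lost its call without knockdown replicate 2 at 0 h (0.11, limma adjusted p = 0.0520), and GLTP lost it without any one of 13 single arrays (0.09 to 0.10, adjusted p 0.0505 to 0.0610). Without all arrays of 1 replicate number, GAL3ST1 lost its call for number 1, 2 or 3 (limma adjusted p = 0.0991, 0.242 and 0.0825). GLTP lost its call for number 2 or 4 (adjusted p = 0.36 and 0.221).

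IL1B moved 4 of these other genes most in control cells. PLPP3, a phosphatase of lipid phosphates that include S1P, rose by 0.72 ± 0.05 in knockdown cells and 0.85 ± 0.04 in control cells. A4GALT, which makes globotriaosylceramide, rose by 0.65 ± 0.08 in knockdown cells and 0.70 ± 0.07 in control cells. GAL3ST1 fell by 0.85 ± 0.08 in knockdown cells and 1.01 ± 0.07 in control cells, and CERS4, a ceramide synthase, fell by 0.51 ± 0.09 in knockdown cells and 0.68 ± 0.08 in control cells. Between the arms PLPP3, A4GALT and CERS4 did not pass, at 0.03, -0.07 and -0.04.

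**Figure D3:**
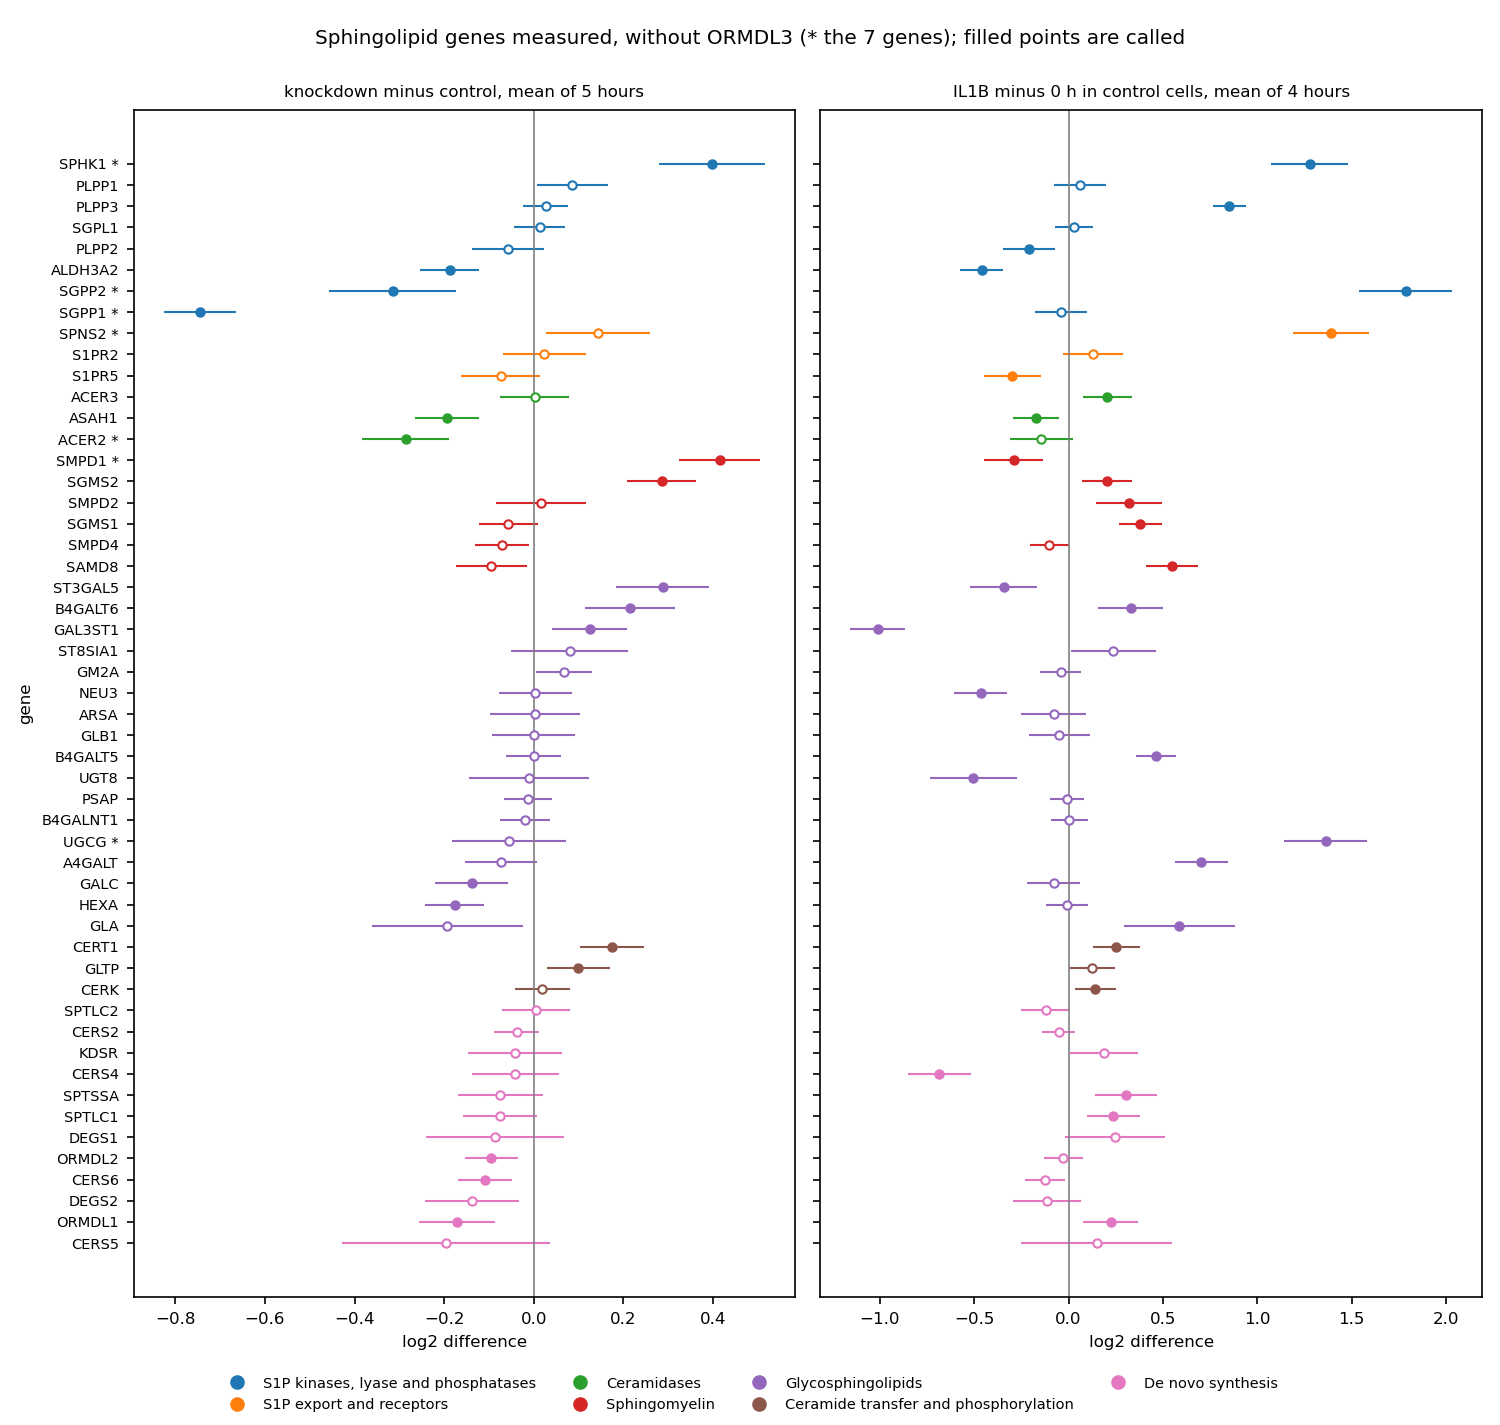
Log2 difference (horizontal axes) of the 52 measured genes of the lists without ORMDL3, for knockdown minus control as the mean of 5 hours (left) and, in control cells, for the mean of 4 hours of IL1B minus 0 h (right), with 95% intervals from limma, filled points where the adjusted p is under 0.05 and a star at the 7 genes. SGPP1 has the lowest knockdown difference, at -0.75, SMPD1 and SPHK1 the highest, at 0.41 and 0.40, and SGPP2, SPNS2, UGCG and SPHK1 are the 4 genes furthest to the right under IL1B. The 7 genes and the lists were chosen with earlier results of these data known, so the place of the 7 at the ends is no test.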

How the data were processed

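Expression was measured on 38 Affymetrix arrays of A549 RNA, grouped by arm and hour as the labels give them. The deposited values are log2 expression levels per probe set. RMA, Affymetrix Power Tools, hg19 and limma 3.22.7 are named in the submitters' processing notes, with no role or order. The sources used here do not say how the 14488 probe sets were picked. The values were used as deposited. Detection values were not at hand, and precision is limited by the number of arrays.

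Genes were named from the platform annotation, where 12132 probe sets had 1 symbol, 628 several and 1728 none, and 12121 were matched to current records by Entrez identifier. With limma 3.58.1 in R 4.3.3, a model of 10 group means was fitted over the 38 arrays together, with empirical Bayes moderation without trend or robust option. Contrasts were knockdown against control, each hour against 0 h and against its neighbour in each arm, and the difference in response, adjusted by the Benjamini-Hochberg method per contrast. ORMDL3 was compared by exact permutation. The mean knockdown contrast and the joint F test were also run on simulated data with independent noise. That noise held no likeness between arrays of the same replicate number, so the run cannot show how such likeness acts on the tests. Alternatives were the scaling between arrays, the moderation, array weights, a filter on dim probe sets, separate fits, the replicate number as a block and leaving out arrays.

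Named genes are the 7 members, ORMDL3, the list genes called for knockdown as the mean of hours, the 4 other list genes that IL1B changed most in control cells, and the 3 most similar probe sets for each member. SGPL1 is named besides these, for its place in the pathway. The members and the lists were chosen with earlier results of these data known. Promoter windows are on GRCh38.p14 and no other coordinates were used.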

Additional observations from a re-analysis of the deposited data

Results flagged for a closer look

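Of 56 groups of 4 arrays, the 7 genes in the 8 groups of that size, 3 held an array that stood far from the others of its group by Dixon's test, and chance gives about 1 in 20. SGPP1 was at 8.061 in knockdown replicate 3 at 2 h, where the others lay at 7.81 to 7.85. SGPP1 was at 8.886 in control replicate 1 at 4 h, where the others lay at 8.69 to 8.71. UGCG was at 10.39 in knockdown replicate 1 at 4 h, where the others lay at 9.86 to 9.91.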

How the results depend on the processing

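Across 50 alternatives, 9525 values for the 7 genes kept their side of the threshold, 55 gained a call, 87 lost one and 0 turned a called direction. The mean knockdown calls of SGPP1, SGPP2, SPHK1, SMPD1 and ACER2 and the mean IL1B calls were lost under none of those in which the gene was tested. Without all arrays of the number in brackets, further IL1B calls were lost. In knockdown cells these were SPNS2 at 2 h (1 or 2), UGCG at 8 h (2 or 4) and 10 h (2) and ACER2 at 10 h (1 or 3). In control cells they were SMPD1 at 8 h (1) and 10 h (2) and the UGCG step from 4 to 8 h (2). The control SPNS2 step from 2 to 4 h (3) and ACER2 steps from 2 to 4 h (2, 3 or 4) and 4 to 8 h (1, 2 or 3) were lost too. Leaving out 1 array or all arrays of 1 number gave 2131 to 3615 probe sets called for knockdown (5 to 6 of the 7 genes), 4439 to 5765 for IL1B in control cells (5 to 6), 2786 to 4584 for IL1B in knockdown cells (5 to 5), 4 to 43 for the mean difference in response (0 to 0) and 2 to 26 for the joint F test (0 to 0), which lay between 9 and 15 without any one of 14 arrays, against 24 with all. Without probe sets of mean level below the median, 3 of the 7 genes were tested. The counts were then 2178 probe sets and 2 genes for knockdown, against 3332 and 5, 3304 and 2 for IL1B in control cells, against 5688 and 5, and 2651 and 1 for IL1B in knockdown cells, against 4501 and 5, with fewer probe sets tested. For the mean difference in response, 34 probe sets became 18 with quantile normalization, 17 with array medians subtracted and 536 with array weights. Array weights also gave 6825 for IL1B in knockdown cells, 457 for the joint F test against 24, and 2 of the 7 genes in the mean and in the joint F test of the difference in response. By hour they gave UGCG and ACER2 at 2 h and UGCG at 8 h. The cause of these moves was not tested.

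Replicate numbers were not taken to pair arrays, and the main fits did not include them. The correlation of deviations from the group means exceeded 0.1 in 11 of 18 pairs of the same number and hour (-0.22 to 0.58, median 0.15). Over all pairs of groups it exceeded 0.1 in 107 of 162 pairs of the same number (median 0.18). For pairs of different numbers this was 104 of 487 (median -0.06), and 28 of 38 arrays correlated best with their own number. Arrays of the same number were thus more alike, which the main p-values leave out. With the replicate block as a fixed term, 65 probe sets were called for the mean difference in response and 68 for the joint F test, and as a random block 57 and 50. The block lost none of the mean calls of the 7 genes, and it added calls at single steps. With the fixed block SGPP2 passed from 4 to 8 h in control cells (-0.38, limma adjusted p = 0.00467), from 8 to 10 h in knockdown cells (-0.35, 0.0255) and between the arms at 10 h (-0.33, 0.0354), SMPD1 at 4 h in control cells (-0.23, 0.0411) and SGPP1 from 4 to 8 h in knockdown cells (0.23, 0.0416). With the random block the SGPP2 step in control cells (-0.34, 0.0460), SMPD1 at 4 h (0.0411) and the SGPP1 step (0.0359) passed. The other list genes called, with ORMDL3 among those tested, numbered 9 to 17 for knockdown, 17 to 27 for IL1B in control cells and 12 to 28 for IL1B in knockdown cells over the alternatives, against 14, 24 and 20.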
